A study of Rattus norvegicus with 9 samples.

Results

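The constitutive proteasome genes were examined in rat retina after streptozotocin-induced diabetes. Members were taken by name alone, as every probe whose symbol in the array annotation starts with Psma, Psmb, Psmc, Psmd, Psme, Psmf or Psmg and a number, without the interferon-inducible Psmb8 and Psmb9. That gave 42 of 22226 probes, for 41 genes. One of them, Psmc3ip, is a cofactor of meiotic recombination rather than a proteasome subunit and was set apart. The rule by name also kept Psmb10, Psme1 and Psme2, which interferon induces and which are thus not constitutive in the strict sense. The other 41 probes fell into the 20S core (17 probes, Psma and Psmb), the 19S cap (19 probes, Psmc and Psmd) and activators or assembly chaperones (5 probes, Psme and Psmg). These sets were not complete, as Psma7, Psmd10, Psme3 and Psmf1 had no probe under their symbol and were not analysed.

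Retinal RNA of 4 STZ rats and 5 Control rats was hybridised to RatRef-12 BeadChips (Illumina), 1 array per rat. All were male Sprague-Dawley rats of the same experiment. The STZ group had received 65 mg/kg streptozotocin, a toxin of the insulin-producing cells of the pancreas, into the peritoneum and no insulin, and the Control group citrate vehicle alone. Retinas were taken 3 months after injection. Streptozotocin models diabetes by insulin loss, and whole retinas were used, in which fewer cells of a type and less RNA per cell cannot be told apart.

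The proteasome breaks down proteins that carry ubiquitin chains. Its barrel, the 20S core, is built of outer alpha rings (Psma genes), which gate the entrance, and inner beta rings (Psmb genes), which hold the proteolytic sites. The 19S cap unfolds substrates with ATPases (Psmc genes) and binds or removes ubiquitin with other subunits (Psmd genes), while activators of the Psme family bind the same barrel ends and Psmg chaperones help to build the alpha ring. Under interferon the catalytic subunits Psmb5, Psmb6 and Psmb7 are replaced by Psmb8, Psmb9 and Psmb10. Transcription of the standard genes is raised by Nfe2l1 when proteasomes are inhibited, and by Nfe2l2 in oxidative stress, through a shared DNA element.

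Promoters of the members are shown because these regulators act there and 1 of them, Nfe2l2, was measured below. Of the 40 subunit and helper genes, 36 had an entry in the RefSeq promoter table of the build GRCr8. Each entry covers 250 bases before and 50 bases after a listed start, and the first entry of each gene was used. In some members, such as Psma6, Psmd11, Psmb1, Psmd3 and Psmd5, that start lay inside the gene rather than at its outer end. Both strands were searched for a pair of motifs, TGACNNNGC, the core letters of the element of Nfe2l1 and Nfe2l2, and CCAAT, the box bound by the factor NF-Y. Members were counted by gene and the background by promoter entry, without reducing it to single genes. The first motif was found in 8 of 36 members (22.2%) and in 12.1% of all 33469 promoters of that length. By subcomplex it stood in 4 of 15 core genes (Psma3, Psmb2, Psmb5 and Psmb6), 3 of 16 cap genes (Psmd1, Psmd3 and Psmd9) and 1 of 5 activators and chaperones (Psme4). CCAAT was found in 15 of 36 members (41.7%) and in 37.5% of all promoters, with 9 of 15 in the core, 6 of 16 in the cap and 0 of 5 among activators and chaperones.

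The last 100 bases before the start are given for the 6 members with a TGACNNNGC match there, and for Psma4 and Psmg1, the only members past the threshold of the test below. Capitals mark matches to either motif on either strand. In Psmb2 both motifs overlap by 1 base.
Psmb5 (chr15:32047380-32047479, minus strand): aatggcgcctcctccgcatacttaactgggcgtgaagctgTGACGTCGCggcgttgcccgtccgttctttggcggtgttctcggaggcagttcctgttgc
Psmb6 (chr10:55737788-55737887, plus strand): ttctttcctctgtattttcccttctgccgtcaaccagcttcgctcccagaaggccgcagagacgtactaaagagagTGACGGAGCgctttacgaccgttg
Psmb2 (chr5:144254958-144255057, plus strand): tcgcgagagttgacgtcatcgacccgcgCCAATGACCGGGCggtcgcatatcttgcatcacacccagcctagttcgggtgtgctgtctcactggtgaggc
Psma3 (chr6:95219649-95219748, plus strand): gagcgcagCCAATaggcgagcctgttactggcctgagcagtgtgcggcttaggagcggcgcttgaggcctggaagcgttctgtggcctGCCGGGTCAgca
Psmd9 (chr12:39018265-39018364, minus strand): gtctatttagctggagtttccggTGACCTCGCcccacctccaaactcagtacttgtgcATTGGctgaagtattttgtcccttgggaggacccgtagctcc
Psme4 (chr14:108706543-108706642, plus strand): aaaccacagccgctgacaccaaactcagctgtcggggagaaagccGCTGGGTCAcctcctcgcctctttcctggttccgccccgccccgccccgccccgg
Psma4 (chr8:64236420-64236519, plus strand): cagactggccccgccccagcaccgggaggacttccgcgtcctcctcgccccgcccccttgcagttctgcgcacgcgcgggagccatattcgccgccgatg
Psmg1 (chr11:48755041-48755140, minus strand): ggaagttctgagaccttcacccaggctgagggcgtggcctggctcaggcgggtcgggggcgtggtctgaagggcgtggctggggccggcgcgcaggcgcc
The match began 60 bases before the start in Psmb5, 24 in Psmb6, 68 in Psmb2, 12 in Psma3, 77 in Psmd9 and 55 in Psme4. Neither Psma4 nor Psmg1 held these letters in the stretch shown.

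Array medians of the deposited intensity were 76.9 to 87.9 in STZ and 70.0 to 84.4 in Control retinas, and 11207 to 11609 probes in STZ and 10843 to 11524 in Control retinas had a detection p under 0.05. BeadChip 1 held Control 1 to 3, and BeadChip 2 held Control 4 and 5 with all STZ arrays, so a fit with the BeadChip as a block gives the difference within BeadChip 2. Retina markers were detected on all arrays in 6 of 6 rod genes and 4 of 4 ganglion cell genes tested. Of the 5 lens markers, 4 were higher in STZ retinas (Crygd by 5.71 on the log2 scale) and Mip had an adjusted p of 0.841, with summed intensities of 32300 to 58900 in STZ and 2263 to 6620 in Control retinas. All 4 ganglion cell markers were lower, with sums of 5654 to 7146 in STZ and 7999 to 9606 in Control retinas. Of the 6 rod markers 2 were lower (Nrl and Rcvrn), and all 6 summed to 41740 to 43950 in STZ and 47230 to 49540 in Control retinas. With the BeadChip as a block the 4 lens markers and the ganglion cell marker Nefm kept their calls, and Nefl, Sncg, Thy1, Nrl and Rcvrn did not (adjusted p = 0.0677, 0.219, 0.139, 0.119 and 0.0759). The part of these shifts in the proteasome values was not tested.

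Testing was limited to probes that reached a detection p under 0.05 in every retina of either group, members and others alike. Of the 41 probes, 38 passed, and all 38 were detected on 9 of 9 arrays. The 3 that did not pass were Psma8, the testis form of an alpha subunit (0 of 4 STZ and 0 of 5 Control arrays), Psmb11, the thymus form of a catalytic subunit (0 of 4 STZ and 2 of 5 Control arrays), and Psmd14, the deubiquitinase of the cap (0 of 4 STZ and 0 of 5 Control arrays). The last is an essential part of every cap, and its probe was not above background in these retinas.

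Of the 38 proteasome probes, 1 was higher (Psma4) and 1 was lower (Psmg1) in STZ retinas at an adjusted p under 0.05 (limma, Benjamini-Hochberg over 10261 probes). Among all tested probes 4.84% were higher and 4.45% lower by that rule, shares of the same order as those of the members. Both differences were 1.10-fold. At an unadjusted p under 0.05, 6 members were higher and 6 lower, against 10.8% and 14.5% of all probes. None of the 38 met the thresholds of the study's methods, an unadjusted p under 0.05 with at least a 1.2-fold difference, which 5.55% of all probes met upwards and 4.46% downwards. The median log2 fold over the 38 was 0.01, against -0.01 over all tested probes, and 21 of 38 folds were above 0, against 42.2% of all. The 95% interval of the fold lay wholly within 1.2-fold either way for 23 of 38 members, against 60.1% of all tested probes.

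By subcomplex the median log2 fold was 0.01 in the core (15 probes, -0.18 to 0.18), 0.01 in the cap (18 probes, -0.16 to 0.25) and 0.03 in activators and chaperones (5 probes, -0.14 to 0.21). The size of the fold had a median of 0.11, 0.09 and 0.14 in these sets, and of 0.07 over all tested probes. Probes were not matched for brightness, so the larger sizes cannot be read as a trait of the members. Cap probes varied most among STZ retinas, with a median SD of 0.14 in STZ and 0.09 in Control retinas, while core probes had 0.07 in both groups and all tested probes 0.09 in STZ and 0.07 in Control. Of the members whose groups did not overlap, 3 were higher and 1 lower in STZ retinas. Of all tested probes 6.6% were higher without overlap and 6.41% lower.

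**Figure D1:**
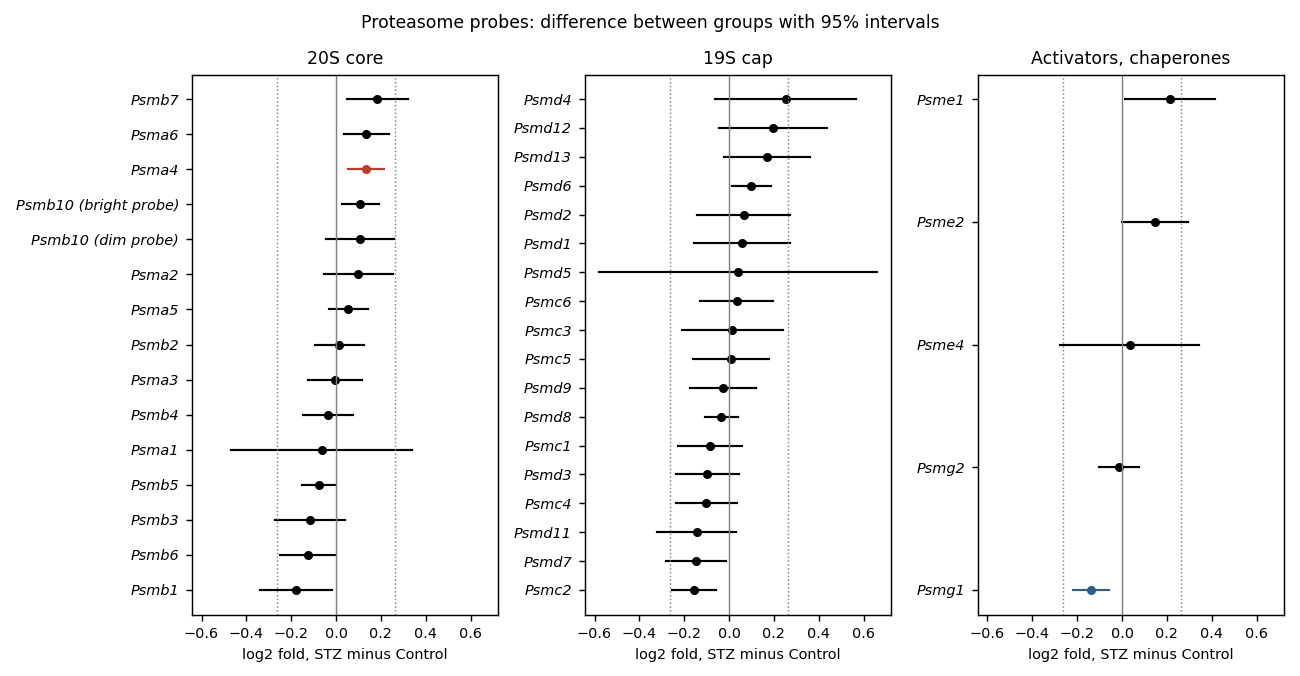
Log2 fold, STZ minus Control, of the 38 tested proteasome probes with 95% intervals, by subcomplex and sorted by size within each. Dotted lines mark 1.2-fold either way, red marks Psma4 (higher) and blue Psmg1 (lower), the only members past the adjusted threshold; folds run from -0.18 to 0.25.

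Psma4, an alpha ring subunit (probe ILMN_64056), had log2 intensities of 10.87, 10.79, 10.88 and 10.86 in STZ retinas 1 to 4, and of 10.64, 10.79, 10.72, 10.73 and 10.71 in Control retinas 1 to 5. The groups just failed to overlap, STZ 2 and Control 2 lying closer than the rounding. The difference was 0.13 ± 0.03 on the log2 scale (SE, adjusted p = 0.0474, limma). With the BeadChip as a block the fold was 0.13 and the adjusted p 0.215. The call held in 3 of 18 alternatives (adjusted p from 0.0367 to 0.896), and it ended on leaving out any array but Control 2 or STZ 2 (adjusted p from 0.0758 to 0.123).

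Psmg1, a chaperone that starts assembly of the alpha ring (probe ILMN_62511), had 11.08, 11.19, 11.19 and 11.20 in STZ and 11.33, 11.24, 11.33, 11.35 and 11.26 in Control retinas. Every STZ retina lay below every Control retina, with STZ 1 apart at the low end. The log2 fold was -0.14 ± 0.03 (SE, adjusted p = 0.0455, limma), and with the BeadChip as a block -0.14 (adjusted p = 0.191). The call held in 2 of 18 alternatives (adjusted p from 0.0424 to 0.779), and it ended on leaving out any array but Control 2 (adjusted p from 0.0554 to 0.104).

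The alpha ring held 3 further probes with a positive fold. Psma6, an alpha subunit, had 12.37, 12.29, 12.42 and 12.38 in STZ and 12.32, 12.12, 12.24, 12.24 and 12.22 in Control retinas. Only Control 1 reached into the STZ range, and the log2 fold was 0.13 ± 0.04 (SE, adjusted p = 0.0947, limma). Psma2 (0.10) and Psma5 (0.06) had adjusted p-values of 0.416 and 0.430. Psma3 (-0.004) and Psma1 (-0.06) lay on the other side of 0, and Psma1 spread from 8.19 to 8.94 among STZ retinas, wider than the 8.44 to 8.88 of Control retinas. The Psma3 probe was dim (mean 7.26 in STZ and 7.27 in Control retinas), and its fold was 0.01 with the authors' processed values.

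Of the standard catalytic subunits, Psmb7, which carries the trypsin-like site, was the member with the largest positive core fold. It had 11.51, 11.24, 11.30 and 11.23 in STZ and 11.06, 11.23, 11.10, 11.13 and 11.15 in Control retinas. STZ 1 stood far above the rest, and STZ 4 and Control 2 differed by less than the rounding without overlap. The log2 fold was 0.18 ± 0.06 (SE, adjusted p = 0.0954, limma), and without STZ 1 it was 0.12 (adjusted p = 0.108).

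Psmb5, which carries the chymotrypsin-like site, had 11.26, 11.11, 11.12 and 11.13 in STZ and 11.23, 11.25, 11.24, 11.22 and 11.22 in Control retinas. The Control values were tight, and 3 of 4 STZ retinas lay below all of them while STZ 1 lay above. The log2 fold was -0.08 ± 0.03 (SE, adjusted p = 0.190, limma), with an adjusted p of 0.0238 when STZ 1 was left out.

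Psmb6, which carries the caspase-like site, had 12.06, 11.95, 11.91 and 11.92 in STZ and 12.14, 12.20, 12.04, 12.10 and 11.96 in Control retinas. The groups overlapped through STZ 1 and Control 5. The log2 fold was -0.13 ± 0.05 (SE, adjusted p = 0.182, limma), and with the BeadChip as a block -0.07 (adjusted p = 0.675).

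Psmb10, the interferon-inducible counterpart of Psmb7, was measured by a bright and a dim probe. The bright probe (ILMN_59050) had 10.79, 10.86, 10.81 and 10.77 in STZ and 10.64, 10.76, 10.67, 10.76 and 10.65 in Control retinas. All STZ values lay above all Control values, with a small gap between STZ 4 and Control 4, and the log2 fold was 0.11 ± 0.04 (SE, adjusted p = 0.101, limma). The dim probe (ILMN_161718) had 8.05, 8.01, 7.92 and 7.91 in STZ and 7.75, 7.77, 8.07, 7.87 and 7.87 in Control retinas. Its groups overlapped through Control 3 alone, and its log2 fold of 0.11 had an adjusted p of 0.369 (limma).

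The other beta ring subunits have no proteolytic site. Psmb1 had the lowest fold of all members, -0.18 ± 0.07 (SE, adjusted p = 0.153, limma), with 12.68 to 12.94 in STZ and 12.86 to 13.11 in Control retinas. Psmb3 had -0.12 (adjusted p = 0.337), Psmb4 -0.04 and Psmb2 0.01. None of these passed the threshold in any alternative.

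**Figure D2:**
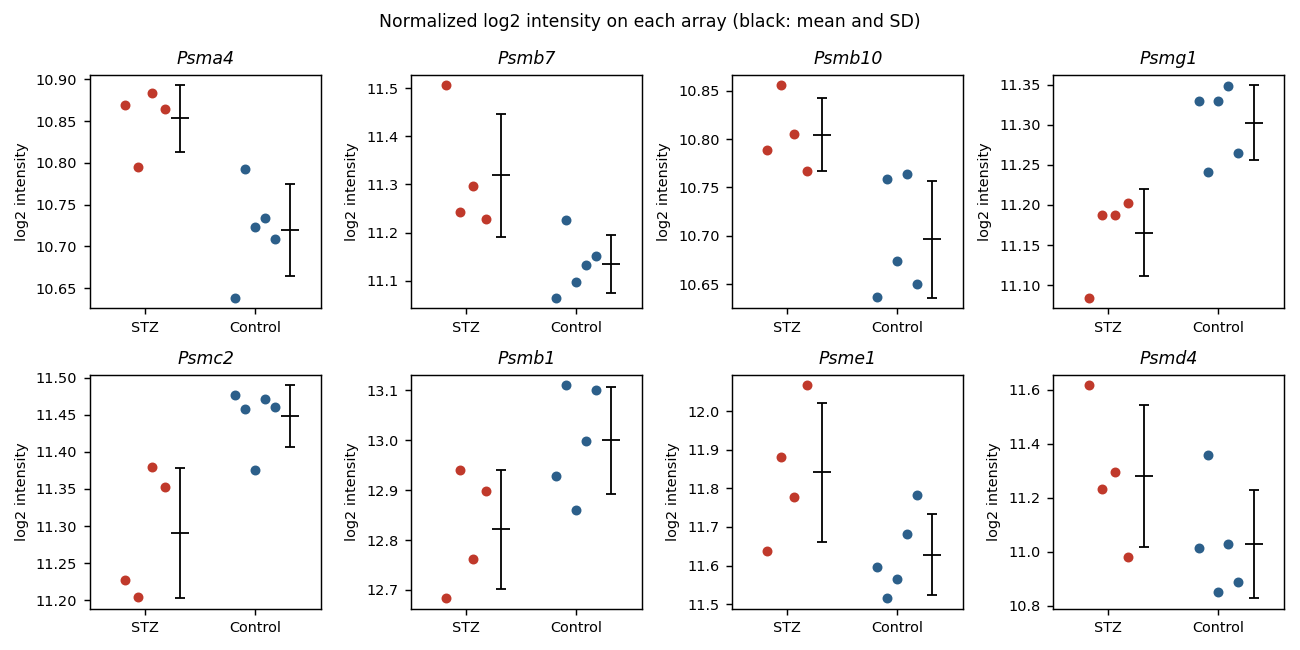
Normalised log2 intensity of 8 members on each array, STZ (red, n = 4) left of Control (blue, n = 5), in array order within a group, with mean and SD in black; each panel has its own axis, which does not start at 0. Psma4, Psmb7, the bright probe of Psmb10 and Psmg1 have groups that do not overlap, and the other 4 members overlap.

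In the 19S cap 0 of 18 probes passed the adjusted threshold, which 4.84% of all tested probes passed upwards and 4.45% downwards. At an unadjusted p under 0.05, 1 cap probe was higher and 2 lower, against 10.8% and 14.5% of all tested probes. Psmc2, an ATPase of the ring that unfolds substrates, came nearest to the adjusted threshold. It had 11.23, 11.20, 11.38 and 11.35 in STZ and 11.48, 11.46, 11.38, 11.47 and 11.46 in Control retinas. STZ 1 and 2 lay well below the Control range, and only STZ 3 reached Control 3. The log2 fold was -0.16 ± 0.04 (SE, adjusted p = 0.0567, limma), with an adjusted p of 0.0497 without STZ 3 and of 0.186 with the BeadChip as a block.

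The other ATPases had folds of -0.10 (Psmc4), -0.08 (Psmc1), 0.01 (Psmc3), 0.03 (Psmc6) and 0.01 (Psmc5), with adjusted p-values of 0.334 or more. Psmc3 reached 9.77 both in STZ 1 and in Control 2, so that both groups spanned about the same range.

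Psmd6, a scaffold subunit of the lid, had 11.51, 11.31, 11.46 and 11.43 in STZ and 11.35, 11.32, 11.36, 11.30 and 11.31 in Control retinas. STZ 2 lay within the Control range and the other 3 STZ retinas above it, and the log2 fold was 0.10 ± 0.04 (SE, adjusted p = 0.148, limma). Psmd7, the partner of the deubiquitinase Psmd14 in the lid, had 11.76, 11.88, 11.56 and 11.72 in STZ and 11.90, 11.92, 11.83, 11.84 and 11.90 in Control retinas. Again STZ 2 was the array within the Control range, and the log2 fold was -0.15 ± 0.06 (SE, adjusted p = 0.159, limma). Without STZ 2 the adjusted p was 0.0245 for Psmd6, 0.0446 for Psmd7 and 0.0326 for Psmd11, another lid subunit with a fold of -0.14. Without STZ 3 the fold of Psmd7 was -0.09 (adjusted p = 0.290) and that of Psmd11 -0.09 (adjusted p = 0.547).

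Psmd13, a lid subunit, had 8.94, 8.59, 8.72 and 8.57 in STZ and 8.35, 8.59, 8.57, 8.59 and 8.58 in Control retinas. Its log2 fold of 0.17 ± 0.08 (SE, adjusted p = 0.249, limma) went with a high STZ 1 and a low Control 1. STZ 3 also lay above every Control retina, and STZ 2 and STZ 4 lay within the Control range. Without STZ 1 the fold was 0.09.

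The largest cap fold was that of Psmd4, a ubiquitin receptor, at 0.25 ± 0.14 (SE, adjusted p = 0.301, limma). Its STZ values were 11.62, 11.23, 11.29 and 10.98 and its Control values 11.01, 11.36, 10.85, 11.03 and 10.89, so that STZ 1 alone lay above the Control range and the other 3 STZ retinas within it. Without STZ 1 the fold was 0.14. Psmd12, a lid subunit, had 0.20 (adjusted p = 0.296), and 0.12 without STZ 1 or 0.13 without STZ 3. Psmd2, the large scaffold of the base, had 0.06 and Psmd1, the other, 0.06. The lid subunits Psmd3 and Psmd8 and Psmd9, an assembly chaperone of the base, had folds of -0.10, -0.03 and -0.03. The Psmd8 probe was dim (mean 7.18 in STZ and 7.22 in Control retinas), and its fold was -0.12 without background correction.

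Psmd5, a chaperone of the base, varied most. It read 7.72 in STZ 1 and 8.86, 9.12 and 8.86 in the other STZ retinas, against 8.71, 8.27, 8.51, 8.57 and 8.94 in Control retinas. The array with the highest Psmd4, Psmd12, Psmd2 and Psmd1 among the STZ retinas thus had the lowest Psmd5. The 95% interval of its fold, -0.58 to 0.66, was the widest of the 38.

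**Figure D3:**
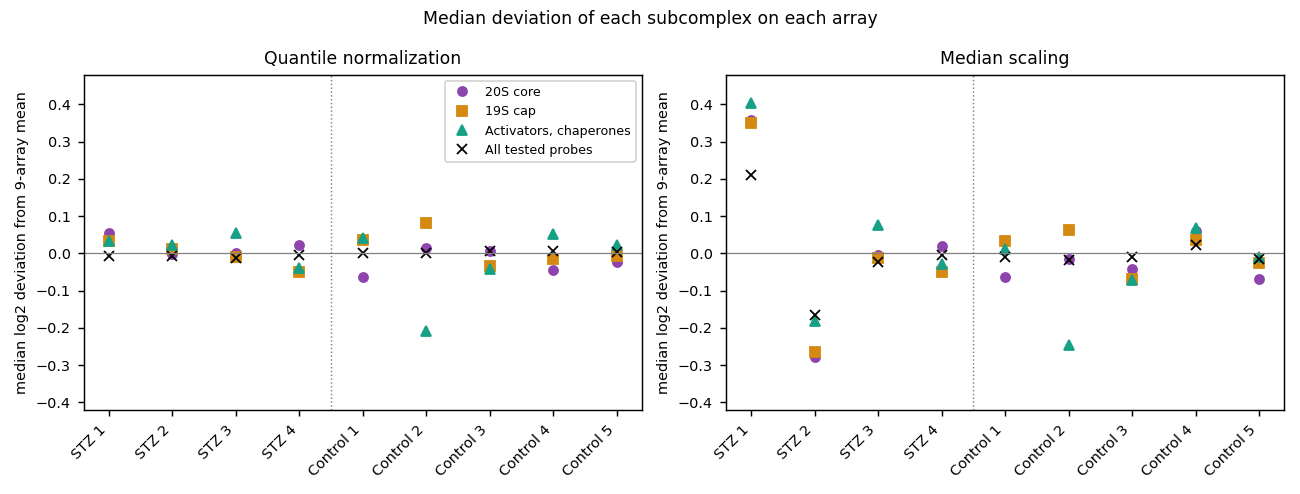
Median log2 deviation from the 9-array mean over the probes of each subcomplex and over all tested probes, on each STZ array (left) and Control array (right), after quantile normalisation (left panel) and after median scaling alone (right panel). After quantile normalisation core medians lie from -0.06 to 0.05 and cap medians from -0.05 to 0.08. After median scaling the core stands at 0.36 in STZ 1 and -0.28 in STZ 2, and the cap at 0.35 and -0.26.

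The scaling mattered for single arrays. After median scaling without quantile normalisation the median deviation of the 38 members was 0.36 in STZ 1 and -0.26 in STZ 2, while that of all tested probes was 0.21 and -0.17. After quantile normalisation the same medians were 0.05 and 0.002. The median fold of the core was 0.05 with median scaling and that of all tested probes 0.01.

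Among the activators, Psme1 and Psme2 form the interferon-inducible 11S ring on the barrel. Psme1 had 11.64, 11.88, 11.78 and 12.07 in STZ and 11.60, 11.52, 11.56, 11.68 and 11.78 in Control retinas. STZ 4 and STZ 2 lay above all Control retinas and the other 2 within or at the edge of their range, and the log2 fold was 0.21 ± 0.09 (SE, adjusted p = 0.171, limma). With the BeadChip as a block it was 0.11 (adjusted p = 0.672).

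Psme2 had 7.83, 7.82, 7.97 and 7.89 in STZ and 7.84, 7.56, 7.76, 7.85 and 7.66 in Control retinas. The groups overlapped, and the log2 fold was 0.15 ± 0.06 (SE, adjusted p = 0.199, limma). Psmg2, the partner of Psmg1 in the chaperone pair, had 7.93, 7.79, 7.88 and 7.80 in STZ and 7.91, 7.91, 7.84, 7.86 and 7.79 in Control retinas. Its groups covered the same range, with a fold of -0.01 (adjusted p = 0.860), while Psme4, an activator of another type, had a fold of 0.03 and a low STZ 4 and a low Control 2. Psmc3ip, set apart above, had a fold of -0.05 (adjusted p = 0.662).

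The members were set against the inducible subunits that take their place. Psmb8 had 8.33, 9.01, 9.11 and 8.55 in STZ and 8.13, 8.08, 8.01, 7.90 and 8.28 in Control retinas, a log2 fold of 0.67 ± 0.16 (SE, adjusted p = 0.0365, limma) that held in 7 of 18 alternatives. Psmb9 had 7.45, 7.64, 7.71 and 7.65 in STZ and 7.26, 7.27, 7.30, 7.38 and 7.36 in Control retinas, a log2 fold of 0.30 ± 0.05 (SE, adjusted p = 0.0140, limma) that held in 15 of 18. Neither overlapped between the groups. With the BeadChip as a block their adjusted p-values were 0.185 for Psmb8 (fold 0.66) and 0.122 for Psmb9 (fold 0.24). Without background correction the fold of Psmb9, a dim probe, was 0.61 (adjusted p = 0.00303). Of the 3 interferon-induced genes tested beside them, Gbp2 (0.62) and B2m (0.59) were higher in STZ retinas (adjusted p = 0.0225 and 0.0820 with the BeadChip as a block), and Irf1 had a fold of 0.07 (adjusted p = 0.803).

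Whether each standard subunit changed unlike its counterpart was tested in 3 pairs, by the log2 difference of the probes on each array. That Psmb8 and Psmb9 were higher was known when the pairs were chosen. The p-values of their pairs thus largely test again what these arrays had shown, and add no support. Psmb5 and Psmb6 themselves changed by -0.08 and -0.13, against 0.67 and 0.30 for Psmb8 and Psmb9. The change of Psmb5 minus that of Psmb8 was -0.75 (exact permutation test over all regroupings of the 9 arrays, two-sided, p = 0.00794, the smallest these can give, adjusted over the pairs 0.0238). Relative to the Control mean, the differences on the arrays were -0.23, -1.05, -1.14 and -0.57 in STZ and -0.06, 0.02, 0.08, 0.17 and -0.21 in Control retinas. STZ 2 and 3 lay farthest out, and STZ 1 lay next to Control 5.

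The change of Psmb6 minus that of Psmb9 was -0.42 (exact permutation p = 0.0159, adjusted 0.0238), with -0.16, -0.46, -0.57 and -0.50 in STZ and 0.11, 0.16, -0.04, -0.06 and -0.17 in Control retinas. Only STZ 1 overlapped with the Control range, and without background correction the difference was -0.74. Psmb7 and Psmb10 changed by 0.18 and 0.11, a difference of 0.08 (exact permutation p = 0.325, adjusted 0.325). Within BeadChip 2 the differences were -0.73, -0.31 and 0.08 (exact permutation, 15 regroupings, adjusted p = 0.300, 0.300 and 0.667), a design that cannot reach 0.05. Leaving out Control 1, 2, 3 or 4 (adjusted p = 0.0857) or STZ 2, 3 or 4 (adjusted p = 0.0536) ended the call of both Psmb5 minus Psmb8 and Psmb6 minus Psmb9. In all of these sets Psmb5 minus Psmb8 had the smallest p possible (exact permutation, 0.0286 with 70 regroupings, 0.0179 with 56). Its call could thus hold only if another pair reached that p too, so its loss does not show dependence on single arrays.

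**Figure D4:**
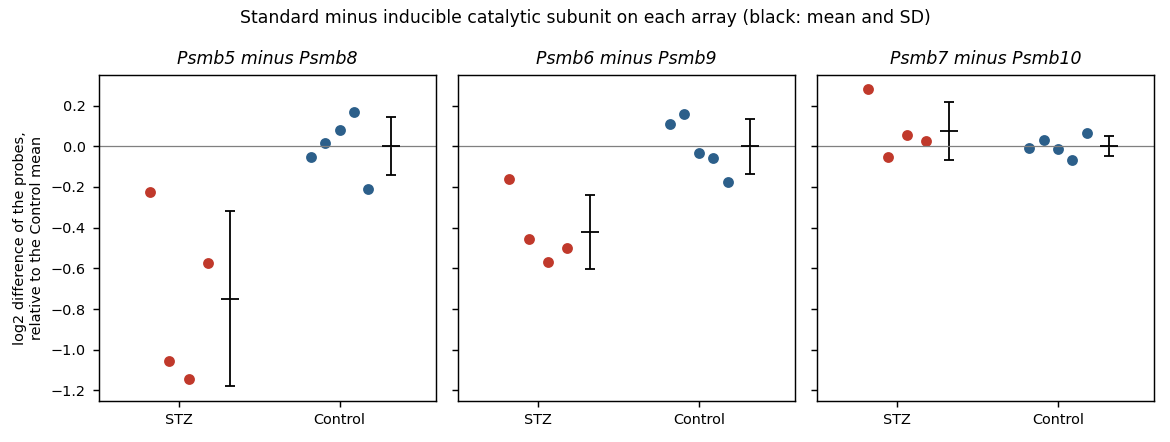
Log2 intensity of a standard catalytic subunit minus that of its inducible counterpart on each array, relative to the Control mean, for STZ (red, n = 4) left of Control (blue, n = 5), with mean and SD in black. The STZ mean is -0.75 for Psmb5 minus Psmb8, -0.42 for Psmb6 minus Psmb9 and 0.08 for Psmb7 minus Psmb10. The groups overlap for Psmb7 minus Psmb10, and through STZ 1 for Psmb6 minus Psmb9.

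Of 57 listed genes around the proteasome (regulators, assembly factors, ubiquitin, shuttles, ligases and deubiquitinases), 30 were tested. Of these, 3 were higher and 0 lower in STZ retinas (limma, adjusted p under 0.05). Among all tested probes 4.84% were higher and 4.45% lower. The median log2 fold of the 30 was 0.01. All 6 assembly and associated proteins, 5 shuttles, 5 deubiquitinases and the 1 ubiquitin-activating enzyme tested missed the threshold, as did most of all tested probes. Pomp, which matures the core, had a fold of -0.22 (adjusted p = 0.202), Usp14, a deubiquitinase on the cap, 0.03 (0.722), and Uchl1, a neuronal deubiquitinase, 0.08 (0.723).

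Nfe2l2, the stress-activated factor named above, was the regulator with the clearest separation. It had 9.19, 9.20, 9.24 and 9.21 in STZ and 8.83, 8.54, 8.68, 8.88 and 8.93 in Control retinas. The STZ values were nearly identical and lay above every Control value, and the log2 fold was 0.44 ± 0.08 (SE, adjusted p = 0.0123, limma). The 8 members with a TGACNNNGC match had folds of -0.13 to 0.06 (median -0.02), and the 28 member probes of genes without a match -0.18 to 0.25 (median 0.02). Of these, 0 of 8 and 2 of 28 passed the adjusted threshold (limma, lowest adjusted p = 0.182 among the 8), and at background shares of 4.84% higher and 4.45% lower a count of 0 among 8 says nothing about them. Nfe2l1 was not analysed here.

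Stat3, a transcription factor of cytokine signalling, had 8.12, 8.73, 8.76 and 8.93 in STZ and 7.81, 7.84, 7.96, 7.92 and 8.22 in Control retinas. STZ 1 lay below Control 5 and the other STZ retinas above all Control retinas, with a log2 fold of 0.68 ± 0.16 (SE, adjusted p = 0.0344, limma). Nedd4, a ubiquitin ligase, had 10.00, 9.60, 9.77 and 9.78 in STZ and 9.48, 9.48, 9.58, 9.46 and 9.52 in Control retinas, without overlap, and a log2 fold of 0.29 ± 0.07 (SE, adjusted p = 0.0411, limma). With the BeadChip as a block the adjusted p-values were 0.0874 for Nfe2l2, 0.228 for Stat3 and 0.174 for Nedd4.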

How the data were processed

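With GenomeStudio 1.0.6 the authors took bead averages per probe, and they deposited them as an intensity on a linear scale, not normalised between arrays, and a detection p-value for each probe and array. They removed 1 diabetic array in quality control. Their processed table of the same arrays, also deposited, served as an alternative. Gene symbols were those of the platform annotation. The members, lists and alternatives were chosen with earlier results of these data known.

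The normexp correction of limma (nec) took its negative controls from the detection p-values and added an offset of 16, and arrays were then quantile normalised and logged to base 2 (limma 3.58.1, R 4.3.3). Groups were compared per probe by limma's moderated two-sided test, with Benjamini-Hochberg adjustment over 10261 probes and a threshold of 0.05. Folds are STZ minus Control on the log2 scale. The fit was tested on simulated data. The pair differences used the brightest probe of each gene and an exact permutation test. Members named with each value were those past the threshold, the 4 with the smallest p in each subcomplex, the catalytic subunits and those without overlap, and Psmd4, Psmd5 and the array extremes of others were added after their values were seen. The number of arrays limits the precision. Promoters were searched in Python 3.11.15 and figures drawn with matplotlib 3.10.9. A comparison of protein sequences was not run.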

Additional observations from a re-analysis of the deposited data

Results flagged for a closer look

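Dixon's test at the 95% level marks about 1 in 20 independent groups of values when no value lies apart. The groups here come from the same arrays and are not independent, so their share cannot be judged against that rate. In 8 of 76 groups of values (10.5%), 1 retina lay apart from the rest of its group by this test. In STZ retinas these were the lowest value of Psmd8 in STZ 3 (7.118, the next 7.202), of Psmg1 in STZ 1 (11.08, the next 11.19) and of Psme4 in STZ 4 (10.65, the next 11.02), and the highest of Psmb5 in STZ 1 (11.26, the next 11.13). In Control retinas they were the lowest value of Psmd13 in Control 1 (8.346, the next 8.568), of Psmc2 in Control 3 (11.38, the next 11.46) and of Psmc5 in Control 3 (10.85, the next 11.04), and the highest of Psma3 in Control 5 (7.455, the next 7.232).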

How the results depend on the processing

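With an offset of 50 and without Control 2 the counts of probes stayed within 1.5 times those reported. Among all tested probes 954 passed the adjusted threshold, against 77 with median scaling, 578 with no detection filter, 179 with the BeadChip as a block, 11 within BeadChip 2, 257 with the replicate block and 473 to 1020 without single arrays. The counts of 1 proteasome probe higher and 1 lower became 0 and 0 with the authors' processed values, without background correction, with median scaling, at a detection p under 0.01, with no detection filter, with the BeadChip as a block, within BeadChip 2, with the replicate block and at the methods' thresholds with either test, and ran from 0 to 2 each without single arrays. The core median of 0.01 was 0.048 with median scaling and 0.043 with the replicate block, and -0.012 to 0.050 without single arrays. The cap median lay from -0.033 to 0.017 and that of activators and chaperones from -0.0068 to 0.13 without single arrays. Psmb5 minus Psmb8 was -0.73 with the BeadChip as a block or within BeadChip 2, where it missed the threshold, and -0.92 to -0.62 without single arrays, with the call lost in 7 of these 9 sets. Psmb6 minus Psmb9 was -0.74 with the authors' processed values and without background correction (adjusted p = 0.0119 in each), -0.31 within BeadChip 2 and -0.40 with median scaling (adjusted p = 0.0595), missing the threshold in the last 2, and -0.51 to -0.37 without single arrays, with the call lost in the same 7 sets. Leaving out an array raises the smallest p these permutations can give, and the causes of the other changes were not tested. Same-numbered STZ and Control retinas deviated together with correlations of -0.08, 0.16, -0.07 and 0.15, so the numbers were not taken to pair the rats. Over the 9 arrays the spread between single retinas limits folds near 0.1.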
